A study of Arabidopsis thaliana with 58 samples.

Results

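The tRNA-sized genes of Arabidopsis were taken as all genes on chromosomes 1 to 5 whose exon length in the gene count table lies between 70 and 90 bp, leaving out identifiers that carry a version suffix. The rule gave 620 of 33331 nuclear genes, and it used length and position only, no ChIP or RNA value. By RefSeq type 539 of the 620 (86.9%) were tRNA genes, 49 were snoRNA genes, 21 were miRNA genes, 7 were pseudogenes and 4 were annotated as protein-coding. Lengths ran from 71 to 90 bp with a median of 73 bp, and 619 genes had 1 exon. The working name therefore fits the large majority of the set, while 81 genes in it are not tRNA genes.

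The study mapped the chromatin remodeler PICKLE (PKL) and H3K4 methylation in whole Arabidopsis seedlings that were 9 days old and kept in continuous white light. An antibody to the endogenous PKL protein was used in jaw-5D, pifQ and hy5 mutants and in WT, which is the Col-0 ecotype, with 3 libraries each. H3K4me1, H3K4me2 and H3K4me3 were mapped in the pkl mutant and in WT with 3 libraries each, and RNA of pkl was sequenced in 3 libraries. The jaw-5D line carries raised levels of a microRNA that lowers transcripts of TCP growth factors, pifQ lacks several PIF factors that act in the dark and shade, and hy5 lacks HY5, a factor that promotes the response to light. The labels give no allele for pkl or hy5, and no anti-PKL library of pkl was analysed here. Because seedlings were ground whole, a peak in few cells and a weak peak in many cells cannot be told apart. The labels speak of biological replicates and say no more about their origin, so differences between groups are read against the spread between these libraries.

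tRNA genes are read by RNA polymerase III, which starts from promoter boxes that lie inside the gene and are bound by the factor TFIIIC. Most genes that code for proteins are read by RNA polymerase II from a promoter upstream of the start, where H3K4me3 gathers in the first nucleosomes, while H3K4me1 covers gene bodies. PKL belongs to the CHD3 family of enzymes that use ATP to move and assemble nucleosomes, and in Arabidopsis it is known for keeping embryo genes off in the seedling. Arabidopsis tRNA genes lie scattered over all chromosomes, apart from a few tandem arrays, the best known of which holds serine and tyrosine tRNA genes on chromosome 1.

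The PKL lists held 11379 to 13979 peaks in the 9 mutant libraries, and 821, 632 and 2824 peaks in WT. WT replicate 3 thus stood apart from its group. The WT lists ended near a -log10 q of 2, the mutant lists near 1.30, and the WT lists also wrote chromosome names in another way, so list format and genotype cannot be told apart in comparisons with WT. The files give no read depth for ChIP. RNA totals were 17584037, 17300314 and 17656899 counts. Leaf genes were high in these (CAB1 had at least 208077 counts), the seed storage gene CRA1 had 3, 1 and 6 counts, and the PKL gene itself had 1697, 1789 and 1940 counts in pkl, with no WT library to set them against.

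A gene was counted as carrying a peak when at least 50 bp of the gene with 200 bp either side lay under peaks of that library. Of the 620 genes, 394, 398 and 415 had a PKL peak in the jaw-5D libraries, 429, 411 and 432 in those of pifQ, 391, 387 and 395 in those of hy5, and 10, 13 and 57 in those of WT. The mutant libraries therefore had a PKL peak at 62.4% to 69.7% of the tRNA-sized genes, and the WT libraries at 1.61%, 2.1% and 9.19%. All 9 mutant libraries lay above all 3 WT libraries. A similar gap held with 1 threshold for all lists: where -log10 q had to reach 2, the counts ran from 383 to 431 in mutants and from 10 to 57 in WT. It was far smaller among equal numbers of peaks. In the 632 strongest peaks of each list, 13 to 19 genes had a peak in jaw-5D, 17 to 18 in pifQ, 11 to 15 in hy5 and 2 to 13 in WT, so that hy5 overlapped with WT and jaw-5D touched its highest value. With 3 against 3 libraries an exact two-sided permutation test cannot go below p = 0.1, so these counts are given as ranges without a p.

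Other nuclear genes carried PKL peaks less often in the same libraries. The mutant libraries had a peak at 23.0% to 27.6% of the 32711 other genes, and the WT libraries at 1.6%, 1.03% and 5.27%. The windows of other genes were wider, with a median of 2275 bp against 473 bp for the tRNA-sized genes. In a window of 472 bp at the 5′ end of each other gene, 16.3% to 20.1% carried a peak in mutants and 0.529% to 3.13% in WT. The share of tRNA-sized genes was higher than that of other genes in 12 of 12 libraries, by 39.8 ± 2.24 percentage points in the mutant libraries (mean ± SD, n = 9) and by 1.67 ± 2.02 points in WT (n = 3). In WT replicate 1 the gap was 0.0141 points. Over the 12 libraries it averaged 30.3 points, and 0.677 points among the 632 strongest peaks of each list. For the 57 tRNA-sized genes over 1000 bp from every other gene it averaged 7.18 points. Of these 57 genes, 25 lie in clusters and 3 in a stretch of chromosome 2, both described below, where PKL peaks were rare or absent. As a ratio, tRNA-sized genes carried a peak 2.3 to 2.71 times as often as other genes in mutants, and 1.01 to 2.04 times as often in WT. Among the 632 strongest peaks these ratios were 1.18 to 1.88 in mutants and 0.271 to 2.04 in WT.

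**Figure D1:**
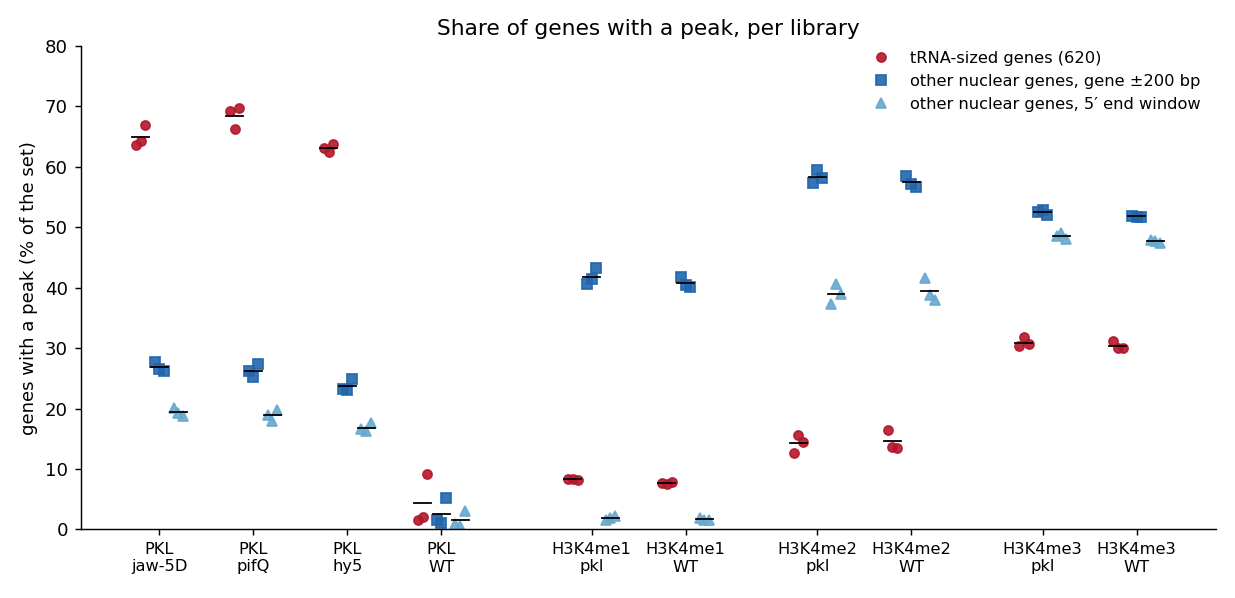
Share of genes with a peak in each library, in percent of the set, for the 620 tRNA-sized genes (circles), all other nuclear genes with 200 bp either side (squares) and other genes in a window of 472 bp at the 5′ end (triangles). Each point is a library and each line the mean of 3. PKL peaks were more frequent at tRNA-sized genes than at other genes in all 9 mutant libraries (62.4% to 69.7% against 23.0% to 27.6%), whereas each H3K4 mark was less frequent there when whole genes are compared.

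The 3 mutant lines were close to each other. The number of tRNA-sized genes with a PKL peak averaged 391 ± 4 in hy5 and 424 ± 11.4 in pifQ (SD, n = 3 each), and these groups did not overlap. It averaged 402 ± 11.2 in jaw-5D, which overlapped with both other lines. The hy5 lists were shorter as well: they held 11379 to 12181 peaks, against 12443 to 13979 in pifQ, and other genes with a peak made up 23.0% to 24.97% in hy5 and 25.2% to 27.4% in pifQ. The part of list length in the difference was not tested. As a ratio to other genes, hy5 (2.55 to 2.71) and pifQ (2.55 to 2.63) overlapped.

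Mostly the same genes were listed in the 3 lines. A peak in at least 2 of 3 libraries was found at 412 genes in jaw-5D, 430 in pifQ, 394 in hy5 and 11 in WT. Of the 620 genes, 371 met this in all 3 mutant lines, 174 in none of the 4 groups, and 15 in pifQ alone. At 289 genes all 9 mutant libraries had a peak, and at 142 genes none of the 9 did, so most genes sat at either end of the scale. A WT peak in any of the 3 libraries was found at 64 genes, and 63 of these carried a peak in all 9 mutant libraries.

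tRNA genes held most of these peaks. In mutants 67.5% to 74.8% of the 539 tRNA genes carried a PKL peak, and every WT peak at a tRNA-sized gene was at a tRNA gene. Among the 49 snoRNA genes, whose products guide the modification of ribosomal RNA, 34.7% to 57.1% carried a PKL peak in mutants. The 6 snoRNA genes with a peak in all 9 mutant libraries were AT1G03743, AT1G03746, AT3G13525, AT3G24612, AT3G50825 and AT4G13245. All of them but AT4G13245 also carried H3K4me3 in 3 of 3 pkl and 3 of 3 WT libraries. Of the 21 miRNA genes 9.52% to 23.8% carried a peak in mutants, that is 2 to 5 genes per library. MIR168b, whose product targets AGO1, was listed in 8 of 9 mutant libraries, while MIR161 and MIR173 were listed in 4 each, and 12 miRNA genes in none. MIR161, MIR168b and MIR173 carried H3K4me3 in all 6 libraries of that mark. The 7 pseudogenes had no PKL peak in any library. Of the 4 genes annotated as protein-coding, AT1G32650 and AT3G08520 had a peak in 3 of 9 mutant libraries each, and AT1G23650 and AT3G28530 in none.

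Most tyrosine tRNA genes and many methionine tRNA genes lie outside the set, since tRNA genes of these families are known to be split by an intron and have a short exon length in the table. RefSeq lists 625 nuclear tRNA genes, of which 84 are in the count table but outside the length rule. Of these 84 genes, 83 have a length of 36 to 38 bp and 1 has 69 bp, and 70 are tyrosine and 11 methionine tRNA genes. The 11 methionine genes outside the rule carried a PKL peak in any mutant library in 11 cases and in all 9 in 9 cases. The 70 tyrosine genes did so in 16 and 14 cases. On the inner edge of the rule, 27 of 31 genes of 71 bp had a peak in any mutant library, as did 5 of 7 genes of 89 and 90 bp. Outside it, 3 of 3 genes of 60 to 69 bp and 18 of 67 genes of 91 to 100 bp did.

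The share of tRNA genes under PKL peaks differed between amino acids and was lowest in tyrosine, proline and serine tRNA genes, many of which lie in arrays or in a stretch of chromosome 2. Histidine tRNA genes had the highest mean share over the 9 mutant libraries, 94.4% of 10 genes, with means of 93.3% in jaw-5D, 96.7% in pifQ, 93.3% in hy5 and 3.33% in WT. It was followed by arginine (89.5% of 36 genes), asparagine, alanine, lysine and threonine (88.0% of 24), and further down by leucine, valine, glutamate and glutamine (75.8% of 17), tryptophan (69.8% of 14) and methionine (58.1% of 13). Neighbours in this order overlapped in their mutant libraries, down to serine. Cysteine tRNA genes averaged 52.6% of 15 genes. Serine tRNA genes averaged 45.2% of 62 genes, proline tRNA genes 37.2% of 66 genes, and the 5 tyrosine genes of the set had no peak. Proline and serine are the families with the most genes in clusters, 42 of 66 and 27 of 62. Among the proline and serine tRNA genes outside clusters and outside that stretch, which is described below, means were 86.6% (24 genes) and 87.5% (32 genes), within the range of the other families.

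**Figure D2:**
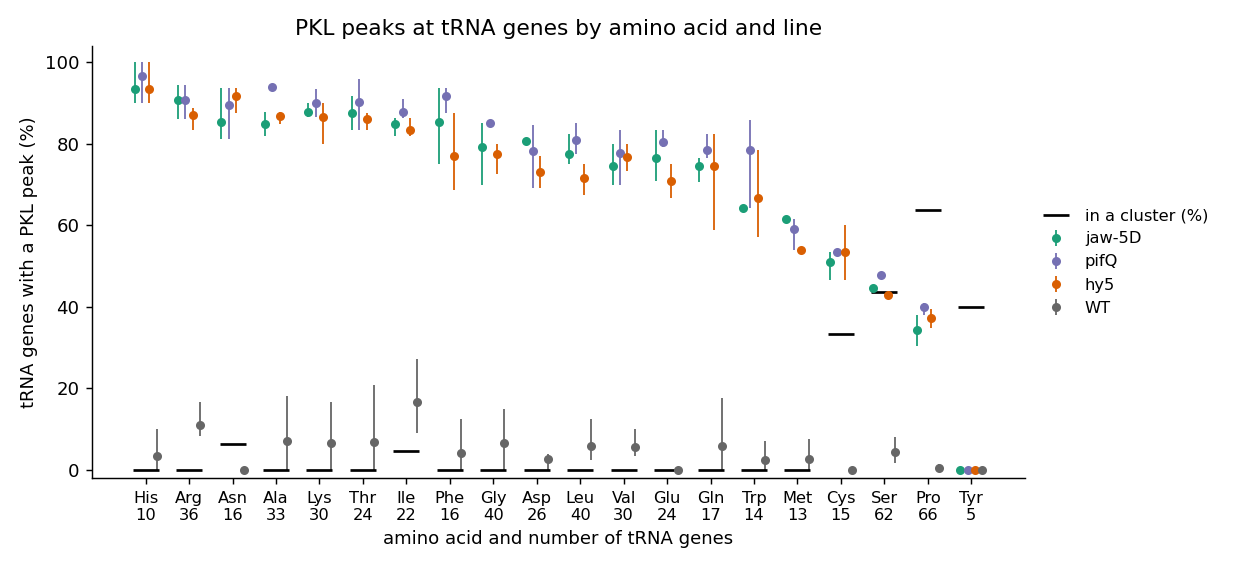
Share of tRNA genes with a PKL peak, in percent, by amino acid (number of genes under the name) in jaw-5D, pifQ, hy5 and WT; points are means of 3 libraries and vertical lines run from the lowest to the highest library. Black dashes give the share of each family that lies in clusters. Families order from histidine (94.4% over the mutant libraries) to proline (37.2%) and tyrosine (0 of 5), and proline and serine have the most clustered genes (42 of 66 and 27 of 62).

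The tRNA-sized genes were spread over all 5 chromosomes, with 196 on chromosome 1, 106 on chromosome 2, 103 on chromosome 3, 83 on chromosome 4 and 132 on chromosome 5. Per Mb up to the last annotated gene, chromosome 1 held 6.44 and chromosome 3 held 4.39. The median distance to the nearest other tRNA-sized gene was 35677 bp. A total of 480 genes had no other within 2000 bp, 48 formed 24 groups of 2, and 92 (14.8%) lay in 12 clusters of at least 3 genes with gaps of at most 2000 bp. With gaps of 1000 bp there were also 12 clusters, holding 61 genes, and with 5000 bp there were 11, holding 95 genes.

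Coordinates are those of TAIR10. The largest cluster was the array of serine and tyrosine tRNA genes on chromosome 1, from AT1G56730 to AT1G57510 (21268787 to 21307675). It held 27 serine tRNA genes, all on the plus strand, with 52 split tRNA genes outside the length rule between them. Tandem proline tRNA genes made up the next ones: 11 genes from AT1G28820 to AT1G28920 (chromosome 1, 10096951 to 10102064), 9 from AT1G28720 to AT1G28810 (chromosome 1, 10089437 to 10094244) and 9 from AT2G33890 to AT2G33970 (chromosome 2, 14350386 to 14356592). A further cluster of 7, AT1G45234 to AT1G45246, held 6 proline tRNA genes and 1 pseudogene of a leucine tRNA gene, and AT1G28930 to AT1G28990 held 6 proline tRNA genes. The remaining clusters held 3 to 5 genes, among them 4 cysteine tRNA genes on chromosome 5 and several groups of snoRNA genes.

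PKL peaks were rare in these clusters. In the mutant libraries 4.35% to 10.9% of the 92 clustered genes carried a PKL peak, against 71.6% to 79.9% of the 528 other tRNA-sized genes. In WT the clustered genes had no peak in any library, against 1.89%, 2.46% and 10.8% of the others. Clustered genes were lower in 12 of 12 libraries, by 65.5 ± 3.39 percentage points in mutants (mean ± SD, n = 9). Groups of 2 did not differ from single genes in this way: 83.7% of 32 tRNA genes in groups of 2 and 81.2% of 429 single tRNA genes carried a PKL peak on average in mutants. In clusters of 3 to 5 genes it was 10% of 10 tRNA genes, and in clusters of 6 or more 5.56% of 68. Of those 10 genes, 5 form the cluster from AT2G07761 to AT2G07765, inside a stretch of chromosome 2 without peaks that is described below. Another 4 are the cysteine tRNA genes on chromosome 5, so this class rests on few places.

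Peaks of other antibodies were present in some of the clusters without PKL peaks. All 27 serine genes of the largest array had no peak of PKL, H3K4me1, H3K4me2 or H3K4me3 in any library. The proline array from AT1G28820 had no PKL peak in any library, yet all 11 genes had an H3K4me1 peak, as had 9 of 9 genes of the array from AT1G28720, 9 of 9 of the array from AT2G33890 and 7 of 7 of that from AT1G45234. At AT1G28920, for example, the whole window of 472 bp was under H3K4me1 peaks in all 3 pkl libraries and all 3 WT libraries. At the other end of that array, AT1G28820 had 162, 413 and 472 bp under H3K4me1 peaks in pkl, against 472, 472 and 472 bp in WT. In the array beside it, AT1G28720 had 426, 429 and 384 bp in pkl, against 433, 390 and 426 bp in WT, so these groups overlapped. The proline cluster from AT1G28930 was the exception among large clusters, with a PKL peak at 53.7% of its 6 genes on average in mutants. The 3 snoRNA genes from AT2G35382 and the 3 from AT3G47342 carried a PKL peak in 77.8% and 59.3% of cases, so small snoRNA clusters were not poor in PKL peaks throughout. How reads from near-identical copies were placed is not given in the sources used here, and its part in these counts was not tested.

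**Figure D3:**
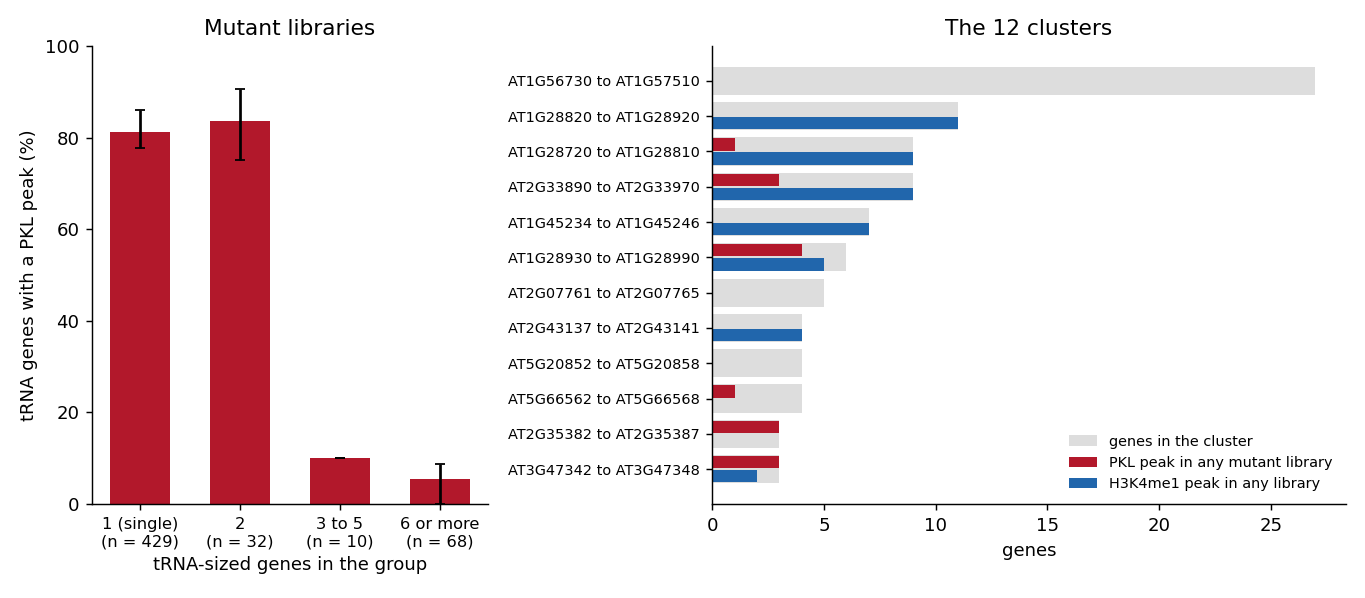
Left, mean share of tRNA genes with a PKL peak over the 9 mutant libraries, in percent, by the number of tRNA-sized genes in the group (error bars run from the lowest to the highest library). Right, number of genes in each of the 12 clusters (grey), with a PKL peak in any mutant library (red) and with an H3K4me1 peak in any library (blue). Single tRNA genes and those in groups of 2 carried a peak in 81.2% and 83.7% of cases and those in clusters of 6 or more in 5.56%, while the proline arrays carried H3K4me1.

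A stretch of chromosome 2 from 3239657 to 3503608, singled out after the values were seen, was empty as well. It holds 21 tRNA-sized genes, 19 tRNA genes and 2 pseudogenes, and none of them had a peak of any antibody in any library. The cluster of 5 genes from AT2G07761 to AT2G07765 lies inside the stretch, so clusters and stretch overlap. The stretch lies next to the centromere, in the region known to hold an insertion of mitochondrial DNA. The 5 tyrosine tRNA genes of the set all lie in this stretch.

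Outside the clusters and this stretch, 447 tRNA genes remained, and PKL peaks were frequent among them. The genes set aside were already known to be poor in PKL peaks, so leaving them out raises the share by itself. In any mutant library, 69 of the 78 clustered tRNA genes had no peak, and neither did any gene of the stretch. Of all 539 tRNA genes in the set, 105 (19.5%) had no peak in any mutant library. A peak was found in any mutant library at 425 of the 447 and in all 9 at 282 (63.1%), with 80.3% to 89.04% of them carrying a peak per mutant library. Chromosomes did not stand apart, with means from 79.8% on chromosome 4 to 87.5% on chromosome 5. The 22 genes without a peak in any mutant library lay a median of 1695 bp from the nearest 5′ end of another gene, and the 282 genes with a peak in all 9 a median of 444 bp. H3K4me3 in at least 2 WT libraries was found at 9.09% of those 22 genes and at 33.7% of those 282.

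In the mutants most summits lay on the tRNA genes themselves. At tRNA genes with a PKL peak, the nearest PKL summit lay within 100 bp of the middle of the gene in 84.1% to 90.9% of cases per mutant library, and in 60% to 66.7% in WT. For other genes with a PKL peak, a summit lay within 100 bp of the 5′ end in 29.9% to 34.4% of cases in mutants and in 27.0% to 28.0% in WT. The windows differ, since a tRNA gene was searched in about 473 bp centred on the point of reference and other genes in a median of 2275 bp measured from an end, so these shares are not set against each other. The summit fell inside the tRNA gene in 56.7% to 66.2% of cases in mutants and in 30%, 38.5% and 40.4% in WT, where most summits were thus outside the gene. In mutants its median position was 11.5 to 17.5 bp downstream of the middle of the gene. Neighbouring tRNA genes can share a peak: the 364 tRNA genes of jaw-5D replicate 1 lay under 358 separate peaks.

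**Figure D4:**
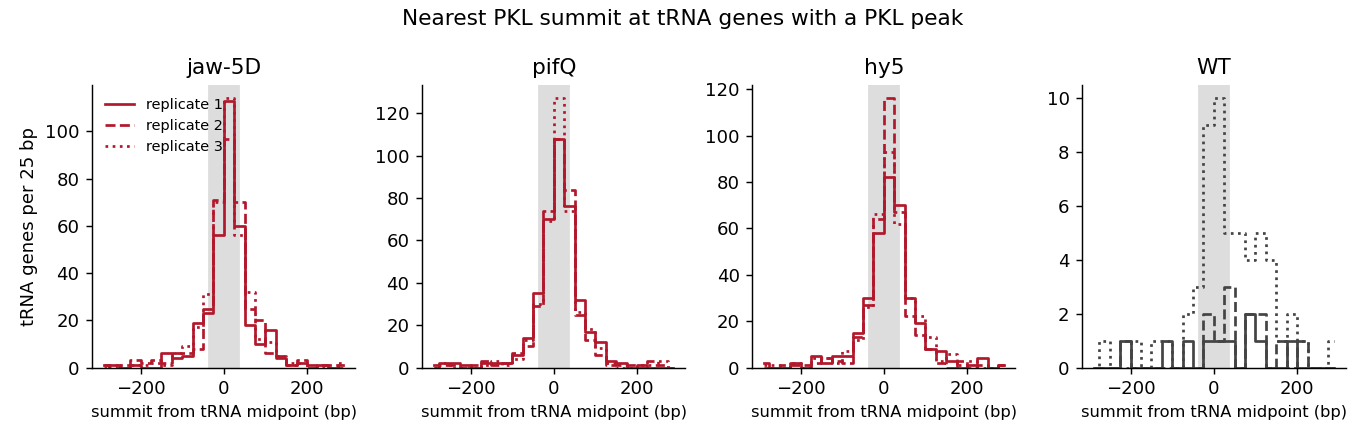
Position of the nearest PKL summit from the middle of the tRNA gene, in bp along the direction of transcription, at tRNA genes with a PKL peak, as number of genes per 25 bp in each library of jaw-5D, pifQ, hy5 and WT (each panel has its own vertical axis). The grey band is 36 bp either side, about the extent of a tRNA gene. In each mutant library the summits gather on the gene, with 84.1% to 90.9% within 100 bp.

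These peaks were of middle to high rank in the mutant lists. Peaks at tRNA genes made up 2.73% to 3.15% of all PKL peaks in mutants and 1.22% to 1.95% in WT. Ranked by q within their list, their median percentile ran from 68.1 to 76.4 in mutants and from 32.2 to 45.5 in WT, which are ranks within lists of unequal length. The authors' fold enrichment at the summit had a median of 2.86 to 3.15 at tRNA genes in mutants, where the median over all peaks was 2.53 to 2.68. In WT it was 4.23 to 5.65 at tRNA genes and 4.55 to 5.95 over all peaks. Median peak width at tRNA genes was 378 to 426.5 bp in mutants and 251 to 322 bp in WT.

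Only 5 tRNA genes carried a PKL peak in all 3 WT libraries, and they did so in all 9 mutant libraries. AT1G07100, an isoleucine tRNA gene (chromosome 1, 2177885 to 2177958), had 474, 474 and 474 bp under peaks in jaw-5D, 474, 474 and 474 bp in pifQ, 474, 467 and 470 bp in hy5, and 226, 213 and 305 bp in WT. AT3G05835, another isoleucine tRNA gene (chromosome 3, 1738791 to 1738864), had 474, 353 and 474 bp in jaw-5D, 416, 371 and 419 bp in pifQ, 440, 392 and 474 bp in hy5, and 367, 272 and 214 bp in WT. At AT1G07100 every WT library had fewer bp under peaks than any mutant library, whereas at AT3G05835 the highest WT value exceeded the lowest jaw-5D value. These values count bp inside the window, which is 474 bp at both genes, and are not peak lengths. The remaining genes were AT5G02815 (serine), AT2G42970 (arginine) and AT3G13223 (leucine), where WT peaks covered 125 to 338 bp and mutant peaks 339 to 482 bp. AT1G07100 and AT3G05835 had no H3K4 mark in any library, and AT5G02815 had H3K4me2 and H3K4me3 in all 6 libraries of each mark.

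The strongest peaks of the mutant lists at tRNA-sized genes were ranked by their mean percentile. AT3G20655, an arginine tRNA gene (chromosome 3, 7224218 to 7224290), stood at a mean percentile of 98.3, with the authors' fold enrichment at 4.64 to 6.64 over the 9 mutant libraries, and at 9.16 and 4.19 in WT replicates 2 and 3, while WT replicate 1 had no peak there. After AT3G05835 (98.0) came the valine and aspartate tRNA genes AT3G59923 and AT3G59926, neighbours on opposite strands that share a peak (96.8 each), and a second pair of the same amino acids, AT1G17660 and AT1G17670 (96.7 each). The serine tRNA gene AT5G16375 (96.5), the arginine tRNA gene AT5G65015 (95.9), the alanine tRNA gene AT1G07580 (94.6) and the lysine tRNA gene AT1G48080 (93.7) complete the 10. AT5G65015 was covered over all 473 bp of its window in all 9 mutant libraries, and over 0, 250 and 0 bp in WT. AT1G07580 lies 1084 bp from the nearest other gene and AT1G48080 lies 97 bp from it, and neither had a WT peak or any H3K4 mark.

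Lines were also compared gene by gene with limma on log2 of bp under peaks plus 100 bp, over 10452 genes with at least 50 bp in at least 3 of the 12 PKL libraries. Of the 620 tRNA-sized genes 450 passed this filter, nearly all through mutant libraries, so counts against WT describe them and support nothing. Centring each library on the 191 genes covered in all 12 moved the difference from WT by 1.20 in jaw-5D, 1.37 in pifQ and 1.17 in hy5 (log2). After centring, 220 tRNA-sized genes had more bp under peaks in jaw-5D than in WT (48.9% of the 450, against 25.5% of all genes tested), 182 in pifQ (40.4% against 20.7%) and 214 in hy5 (47.6% against 22.5%). On the centred scale 3, 7 and 7 genes were called lower, against a background of 1.88%, 2.97% and 2.67%. Lower on this scale need not mean fewer bp. AT3G01705, with 0 bp in jaw-5D, hy5 and WT, was called at -1.20 in jaw-5D and -1.17 in hy5, the size of the centring shift. AT2G42970 was called lower in all 3 lines, with 342 to 415 bp in mutants and 229 to 268 bp in WT. Without centring, 364, 388 and 351 had more bp, where 65.6%, 65.5% and 57.9% of all genes tested did, and 0 had fewer, where 0.0287%, 0.0191% and 0.0191% did. A peak in 3 of 3 jaw-5D libraries and 0 of 3 WT libraries was found at 282 of the 620 genes (45.5%, against 14.6% of all nuclear genes), in pifQ at 316 (51.0% against 14.4%) and in hy5 at 268 (43.2% against 12%).

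Few tRNA-sized genes differed between the mutant lines, as was so over all genes tested. Between pifQ and jaw-5D centring moved the difference by 0.17, and 3 genes then had more bp in pifQ (0.667% of the 450, against a background of 0.976%) and 2 had fewer (0.444% against 1.66%). Without centring it was 4 and 2 genes, against a background of 1.51% and 1.46%. In hy5 against jaw-5D, 1 had more bp (0.222% against 0.641%) and 4 had fewer (0.889% against 2.38%). In hy5 against pifQ, where centring moved the difference by -0.20, none had more (background 0.287%) and 6 had fewer (1.33% against 0.727%). Without centring it was 0 and 8 genes, against a background of 0.258% and 1.21%. The comparisons share libraries. Calls without centring, 6 for pifQ against jaw-5D, numbered 1 without pifQ replicate 1 or 3 and 3 without pifQ replicate 2 or jaw-5D replicate 1. For hy5 against jaw-5D, 5 calls became 11 without hy5 replicate 1 and 9 without hy5 replicate 2, and for hy5 against pifQ, 8 became 4 when any single pifQ library was left out. By presence, 4 tRNA-sized genes had a peak in 3 of 3 pifQ and 0 of 3 jaw-5D libraries (0.645% of the 620, against 0.426% of all nuclear genes) and 2 the opposite (0.323% against 0.417%). Of hy5 against jaw-5D, 1 gene, AT3G58193, was present in hy5 alone (0.161% against 0.237%) and 4 in jaw-5D alone (0.645% against 0.723%). Of hy5 against pifQ, 0 were present in hy5 alone (background 0.138%) and 9 in pifQ alone (1.45% against 0.525%). The genes below are named because they were called, after their values were seen.

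At 4 tRNA genes PKL peaks were present in jaw-5D and pifQ and absent from the hy5 lists. AT4G03435, a phenylalanine tRNA gene (chromosome 4, 1520784 to 1520856), had 0, 0 and 0 bp in hy5, against 401, 473 and 305 bp in jaw-5D and 291, 473 and 278 bp in pifQ (limma adjusted p = 0.000145 against jaw-5D, and 0.00353 against pifQ after centring). AT2G21360, a proline tRNA gene (chromosome 2, 9137356 to 9137427), had 0, 0 and 0 bp in hy5, against 270, 258 and 344 bp in jaw-5D and 296, 306 and 261 bp in pifQ. AT1G49020 (aspartate) and AT5G57885 (methionine) showed the same pattern, with 226 to 320 bp in jaw-5D and 229 to 398 bp in pifQ. All 4 were also without a peak in WT.

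A proline tRNA gene, AT3G01705 (chromosome 3, 259634 to 259705), and a snoRNA gene, AT1G20015 (chromosome 1, 6941285 to 6941373), had peaks in pifQ alone. AT3G01705 had 244, 282 and 250 bp in pifQ and 0 bp in every jaw-5D, hy5 and WT library. AT1G20015 had 343, 250 and 215 bp in pifQ and 0 bp elsewhere. MIR161 (AT1G48267) had 490, 262 and 319 bp in pifQ, 0, 0 and 0 bp in jaw-5D, and 0, 233 and 0 bp in hy5. In the other direction the snoRNA gene AT3G47347 had 0 bp in each pifQ library, against 477, 412 and 477 bp in jaw-5D. AT3G52765, an aspartate tRNA gene, had 0 bp in pifQ, against 290, 296 and 245 bp in jaw-5D. The genes named so far in this paragraph passed the filter for limma only with the line in which they were high. Their calls therefore support nothing, and no p is given for them. AT3G58196, a snoRNA gene, had 233, 322 and 366 bp in hy5, against 0, 132 and 0 bp in jaw-5D (limma adjusted p = 0.0459), which was no longer called after centring.

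H3K4 marks were sparse at tRNA-sized genes. H3K4me1 peaks were found at 52, 52 and 51 of the 620 genes in pkl, and at 48, 47 and 49 in WT. H3K4me2 peaks were found at 78, 97 and 90 genes in pkl, and at 102, 85 and 84 in WT. H3K4me3 peaks were found at 188, 197 and 190 genes in pkl, and at 193, 186 and 186 in WT. For H3K4me1 the groups did not overlap, although they differed by few genes (51.7 ± 0.577 against 48.0 ± 1.00, SD, n = 3 each), and for tRNA genes alone they met, with 42, 44 and 43 in pkl and 42, 39 and 41 in WT. The groups overlapped for H3K4me2 and H3K4me3.

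Other genes carried each mark more often when whole genes were compared. H3K4me1 peaks were at 40.5% to 43.2% of other genes in pkl and at 40.1% to 41.7% in WT, H3K4me2 peaks at 57.3% to 59.5% in pkl and 56.6% to 58.4% in WT, and H3K4me3 peaks at 52.0% to 52.9% in pkl and 51.7% to 51.9% in WT. The share of tRNA-sized genes was lower in 6 of 6 libraries of each mark. On average the gap (tRNA-sized minus other genes) was -33.2 percentage points for H3K4me1, -43.4 for H3K4me2 and -21.5 for H3K4me3. At the 5′ end of other genes, in windows of 472 bp, the order turned for H3K4me1: 8.23% to 8.39% of tRNA-sized genes in pkl carried it, against 1.65% to 2.27% of other genes' 5′ ends, and in WT 7.58% to 7.9% carried it, against 1.58% to 1.87%. For the other marks it did not. Among tRNA genes, H3K4me1 was concentrated in the proline family, at 58.6% of 66 genes in pkl and 55.6% in WT on average. No other family exceeded 8.89% in pkl or 6.67% in WT. Of these 66 proline genes 42 lie in clusters, so the turned order does not describe most families.

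Marks were also combined, each counted where at least 2 of 3 WT libraries had it. Windows of other genes were wider here too, with a median of 2275 bp against 473 bp. Combinations are not given for equal windows, so the part of window width in these shares was not tested. By this count 362 of the 620 genes (58.4%) carried no mark, against 36.6% of other genes. H3K4me3 alone was the most frequent state among the rest, at 126 genes (20.3%, against 2.08% of other genes). H3K4me2 with H3K4me3 was found at 61, H3K4me1 alone at 45, H3K4me2 alone at 22, and all 3 marks at 2 genes (0.323%, against 34.8% of other genes). Of the 337 tRNA genes with no mark, 178 had a PKL peak in all 9 mutant libraries, and of the 95 with H3K4me3 alone, 68 did. Of the 39 tRNA genes with H3K4me1 alone, 0 did. H3K4me1 in WT was at 55.6% of the 66 proline tRNA genes on average, and 42 of the 66 lie in clusters. In no other amino acid family did it exceed 6.67%. Clustered genes were poor in PKL peaks, so these 39 genes do not show how H3K4me1 and PKL peaks relate elsewhere. By class, H3K4me3 was at 25.8% to 27.1% of tRNA genes in pkl and 25.4% to 26.7% in WT, at 75.5% to 81.6% of snoRNA genes in pkl and 73.5% to 77.6% in WT, and at 10 of 21 miRNA genes in every library.

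Few H3K4 peaks at these genes differed between pkl and WT, as was so over all genes tested. Of 49 tRNA-sized genes tested for H3K4me1, 0 were called with more bp in pkl (background 0.480%) and 0 with fewer (0.167%), with 9 at an unadjusted p under 0.05. Of 191 tested for H3K4me3, 0 were called in either direction (background 1.18% with more and 0.396% with fewer), with 15 at an unadjusted p under 0.05, and 1 was called without pkl replicate 1 or 3. Of 90 tested for H3K4me2, 1 had more bp in pkl and 0 had fewer (background 1.20% and 0.588%, or 0.967% and 0.639% after centring, which moved the difference by 0.16), with 9 at an unadjusted p under 0.05. The share of all genes tested with such an unadjusted p was not counted, so these counts are not read as a trait of tRNA-sized genes. The gene called was AT5G46105, a proline tRNA gene (chromosome 5, 18698662 to 18698733) that overlaps another gene. It had 269, 309 and 155 bp under H3K4me2 peaks in pkl, against 0, 0 and 0 bp in WT. It passed the filter through the pkl libraries alone, so its call supports nothing and no p is given. With a replicate block, or when any of 5 of the 6 libraries was left out, 0 genes were called, and 1 without pkl replicate 3. AT5G46105 misses the filter when a pkl library is left out, so that 1 was another gene. AT5G46105 carried a PKL peak in all 9 mutant libraries, with 365 to 472 bp of its window under peaks, and an H3K4me3 peak in all 6 libraries.

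Counted by presence, 2 tRNA-sized genes had an H3K4me2 peak in 3 of 3 pkl and 0 of 3 WT libraries (0.323%, against 0.468% of all nuclear genes), AT5G46105 and AT2G33660. The opposite held for 3 genes (0.484% against 0.327%), AT1G03515, AT1G18430 and AT3G05755. AT2G33660, an aspartate tRNA gene, had 131, 134 and 140 bp in pkl, against 45, 46 and 0 bp in WT. AT1G03515, also an aspartate tRNA gene, had 24, 49 and 35 bp in pkl, against 56, 91 and 116 bp in WT. AT1G18430, another aspartate tRNA gene, had 0, 47 and 29 bp in pkl, against 141, 52 and 50 bp in WT, and AT3G05755, a proline tRNA gene, had 37, 0 and 20 bp in pkl, against 76, 87 and 61 bp in WT. Of the 5 genes, limma called AT5G46105 alone. For H3K4me1 and H3K4me3 no tRNA-sized gene was present in 3 of 3 libraries of one genotype and 0 of 3 of the other, where 0.234% and 0.339% of all nuclear genes were gained and 0.0660% and 0.180% lost in pkl.

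PKL peaks were frequent at tRNA genes with and without H3K4me3. Among the 447 tRNA genes outside clusters and the stretch, 140 carried H3K4me3 in at least 2 WT libraries, and 89.05% ± 4.01 of these had a PKL peak in mutants (mean ± SD over 9 libraries), against 81.5% ± 3.19 of the 307 without. Among other genes, 43.0% ± 2.70 of the 16953 with H3K4me3 had a PKL peak, against 6.95% ± 0.568 of the 15758 without. The difference was 7.51 percentage points at tRNA genes and 36.03 at other genes. With 77.9% to 87.0% of the tRNA genes without H3K4me3 already under a PKL peak, their difference had no room to reach that of other genes. The 9 libraries share the same genes and the same H3K4me3 lists, so no p is given.

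H3K4me3 at tRNA genes followed the distance from a neighbouring gene's 5′ end, and PKL peaks did so little. Of the 124 tRNA genes within 200 bp of such a 5′ end, 90.9% carried H3K4me3 in pkl and 91.4% in WT on average, and 88.1% a PKL peak in mutants. Between 200 and 500 bp H3K4me3 was at 22.5% in pkl and 19.5% in WT of 89 genes, and PKL at 89.6% in mutants. Beyond 2000 bp, H3K4me3 was at 0.966% in both pkl and WT of 69 genes, and PKL at 79.5% in mutants. Over the 5 distance classes the PKL share in mutants stayed between 77.4% and 89.6%. Of the tRNA genes over 1000 bp from every other gene and outside clusters and stretch, which number 21, 18 had a PKL peak in any mutant library and 13 in all 9.

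**Figure D5:**
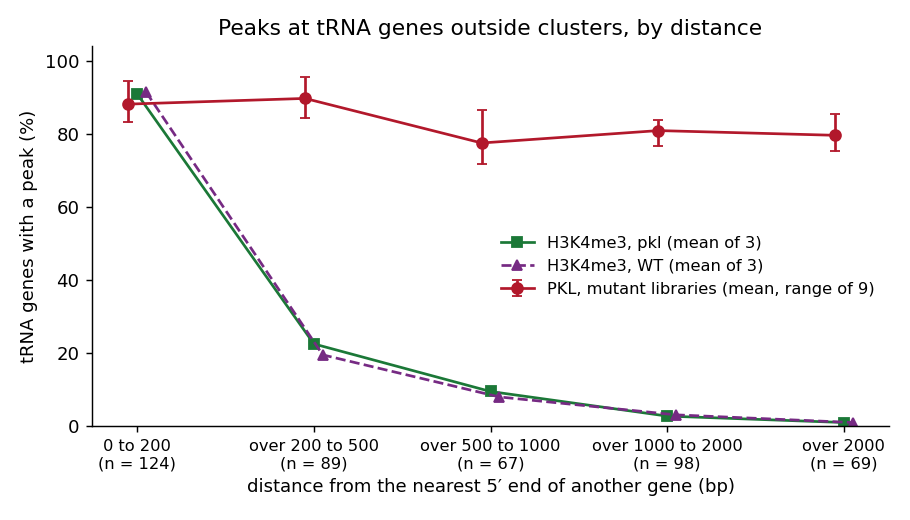
Share of the 447 tRNA genes outside clusters and the chromosome 2 stretch with a peak, in percent, by distance from the middle of the gene to the nearest 5′ end of another gene. PKL is the mean of the 9 mutant libraries with bars from the lowest to the highest, and H3K4me3 is the mean of 3 libraries in pkl and in WT. H3K4me3 was at 90.9% in pkl and 91.4% in WT within 200 bp and at 0.966% in both beyond 2000 bp, while PKL lay between 77.4% and 89.6% throughout.

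RNA of these genes was almost absent from the pkl libraries, which were made from poly(A) RNA, a fraction that holds little mature tRNA. All 539 tRNA genes had 0 counts in all 3 libraries, where 3 counts of the total, the limit that a count of 0 allows, come to 0.171, 0.173 and 0.170 CPM (counting error only). The 620 genes together had 58, 43 and 37 counts, and 11 genes had any. A count in every library was found at 3 tRNA-sized genes, against 68.1% of other nuclear genes. AT3G08520 had 46, 37 and 26 counts, and its exons cover fewer bases than its extent on chromosome 3 (2586032 to 2586206), since it is the gene with more than 1 exon. The snoRNA genes AT2G35747 and AT1G74456 had 2, 2 and 3 counts and 2, 1 and 3 counts, and AT1G07702 and AT3G47348 had 3, 1 and 0 counts and 2, 0 and 2 counts. RNA of tRNA genes therefore could not be set beside PKL or H3K4 peaks, and no WT RNA library was used here.

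PKL peaks were also counted at genes that serve tRNA synthesis and processing. Of 10 genes for RNA polymerase III and its factors, 5 carried a PKL peak in at least 2 of 3 jaw-5D libraries, 6 in pifQ, 4 in hy5 and 0 in WT. Of 10 genes for tRNA processing and export, it was 2 in each mutant line and 0 in WT. Per single mutant library, 23.0% to 27.6% of nuclear genes outside the tRNA-sized set had a peak. That share does not follow the rule of 2 of 3 libraries, so the counts are not read against it. NRPC1, which codes for the largest subunit of RNA polymerase III, had 308, 404 and 363 bp in jaw-5D, 450, 332 and 264 bp in pifQ, 289, 227 and 275 bp in hy5, and 0 bp in each WT library. Only 9 of the 20 genes passed the filter for limma, and those through mutant libraries, so no p against WT is given for them. TBP1 and TBP2, which code for TATA-binding proteins, and TRZ3, which codes for a tRNase Z, had a peak in all 9 mutant libraries and in no WT library. All 20 genes carried H3K4me3 in at least 2 libraries of pkl and of WT, and between pkl and WT limma called 0 of the 19 tested for H3K4me1 and 0 of the 20 tested for H3K4me2 and H3K4me3, where 2, 1 and 1 had an unadjusted p under 0.05 without centring.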

How the data were processed

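Peak lists of 30 ChIP libraries were analysed, 12 for PKL and 18 for H3K4 marks, together with the gene counts of 3 pkl RNA libraries. The series has 58 samples; 10 Hi-C and 15 input samples were not analysed here. Each deposited list holds peaks of 1 library in the format of MACS2, with fold enrichment at the summit as a ratio to local background, -log10 p and -log10 q of each peak, and a score that equals -log10 q times 10 shortened to a whole number, as the file columns show. The authors deposited raw counts per gene on TAIR10, which also give gene position and exon length; the counting tool, its strand setting and the control behind the peaks are not given in the sources used here. Tools listed in the submitters' processing notes, without their roles, were MACS2 2.2.5, Bowtie2 2.3.3, HISAT2 2.1.0, deepTools, fastp and SAMtools 1.6. A total of 6 columns in the gene tables matched no sample and were not used, nor was the FPKM table. Gene type, symbol and amino acid came from RefSeq (TAIR10.1 table, names only), matched by locus tag for all 620 genes. In the list of WT replicate 3, 3 rows on the chloroplast were left out.

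Peaks were merged within a library, and bp under peaks were counted in each gene with 200 bp either side; at least 50 bp counted as a peak. Groups of genes were formed with gaps of at most 2000 bp. Limma 3.58.1 on log2(bp + 100), with Benjamini-Hochberg adjustment over all genes that had 50 bp in at least 3 libraries, compared groups at an adjusted p below 0.05; the 12 PKL libraries shared a fit. Fold changes on that scale understate changes of short peaks, so bp per library are given. Shares over the set carry no p. In simulated data for hy5 against pifQ (10452 genes), 95 of 200 genes changed by 2 on the log2 scale were recovered, with 3 false calls. Genes named are those with a PKL peak in all 3 WT libraries, the 10 highest mean percentiles among genes with a peak in all 9 mutant libraries, the ends of the largest clusters, the 5 highest in pkl RNA, and genes called for an H3K4 mark; genes that differed between lines, snoRNA and miRNA examples were named after their values were seen. The members and gene lists were chosen with earlier results of these data known. Replicate numbers come from the labels; same-numbered libraries of different groups did not deviate together, and the main comparisons use no replicate block.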

Additional observations from a re-analysis of the deposited data

How the results depend on the processing

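Results were recomputed with 0 and 500 bp either side, overlaps of 1 and 150 bp, stricter and equal-sized lists, genes over 1000 bp from all others, other cluster gaps, and each library left out; settings that leave out the clusters and the chromosome 2 stretch, or the WT libraries, were added after seeing the data. Of the settings other than leave-outs, 187 were counted as the same, 5 as moved and 7 as reversed. Of the leave-outs, 117 were counted as the same, 18 as weaker, 16 as moved and 2 as reversed. A result counted as the same can still be far smaller. With equal numbers of peaks the difference in genes from WT fell from 376 to 7.67 in jaw-5D, 397 to 9.67 in pifQ and 364 to 5 in hy5. The mean number of genes with an H3K4me2 peak (pkl minus WT, -2) reversed to 1.67 with 0 bp either side and in genes over 1000 bp from others, 0.333 with 500 bp, 4.67 at -log10 q of at least 10, 4.33 with 1 bp and 2.67 with 150 bp overlap, and ran from -6.33 to 3.83 with single libraries left out, so it has no stable direction. For H3K4me1 the gap to other genes was 6.23 with the 5′ window (-33.2 with whole genes); leave-outs gave -33.4 to -32.8, with -43.7 to -43.2 for H3K4me2 and -21.7 to -21.4 for H3K4me3. The PKL gap to other genes was 30.3 over 12 libraries, 0.677 with the 632 strongest peaks of each list and 39.6 outside clusters and stretch. In genes over 1000 bp from others, of which 25 of 57 lie in clusters, it was 7.18. The gap of clustered to other tRNA-sized genes, -50.4, was -2.4 with equal lists, which hold few peaks. At least 10 RNA counts in every library were found at 1 gene in place of 3, and 3 to 4 genes had a count in every library with a library left out. Limma calls against WT numbered 223, 189 and 221 after centring in jaw-5D, pifQ and hy5 (364, 388 and 351 without); leave-outs gave 334 to 364, 367 to 392 and 309 to 337. Leave-outs gave 1 to 6 calls for pifQ against jaw-5D, 4 to 11 for hy5 against jaw-5D, 4 to 12 for hy5 against pifQ, 0 to 1 for H3K4me2 and H3K4me3, and 0 for H3K4me1. Same-numbered libraries correlated from -0.0790 to 0.0813, so the numbers do not pair them; with a replicate block there were 372, 390 and 354 calls against WT, 4, 4 and 6 between mutants, and 0 for each H3K4 mark. ChIP depth is unknown, so an absent peak may be an undetected one.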
